A study of Mus musculus with 48 samples.

Results

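The 10 genes described here act in the kidney's proximal tubule. They encode carriers of phosphate, glucose, lactate, amino acids, dicarboxylates and bicarbonate, and receptors for filtered protein. They were chosen by name: the rows of the count table whose Ensembl IDs map to Slc34a1, Slc5a2, Slc5a12, Slc3a1, Slc7a9, Slc6a19, Slc13a3, Slc4a4, Lrp2 or Cubn, which are 10 of 55487 gene IDs. The measurements are 48 RNA-seq libraries of kidney slices from male mice, treated outside the body. The mice were either C57BL/6J or DBA/2J, 2 inbred strains, and each of 8 conditions in each strain has 3 libraries, which gives 16 groups. Controls, tunicamycin (an inhibitor of N-linked glycosylation that loads the endoplasmic reticulum with misfolded protein) and cyclosporin A (a calcineurin inhibitor with known kidney toxicity) were each sampled at 6 h and at 24 h. Normoxia, which the labels call an ischemia model, and normoxia-hyperoxia, which they call a reperfusion model, carry 24 h in their titles. The titles name nephrotoxicity for the controls and drugs, ischemia for normoxia and reperfusion for normoxia-hyperoxia, so in each comparison of an oxygen condition the condition and whatever else these parts of the study differ in cannot be told apart. Not given in the sources used here are the doses of both drugs, how much oxygen control slices received and when oxygen was switched. The labels call the 3 libraries of a group biological replicates without saying that they came from separate mice, so p-values measure the spread between these samples, which may in part be technical.

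The proximal tubule reabsorbs most of what the glomerulus filters, by coupling the entry of solutes at its brush border to the sodium gradient and by endocytosis of filtered protein. A cultured or injured proximal tubule cell commonly loses this transport program while it stays alive, which is why such genes are used to follow proximal identity. Transcription factors of the HNF4 family are known to bind near many of these genes.

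Because these factors are tied to proximal genes, the start-site windows of the 10 genes were searched on both strands for set letters, among them the HNF4 letters CAAAGTCCA. RefSeq windows on GRCm38.p6, from 250 bases before to 50 after the start, were at hand for 8 of the 10 genes, in 10 windows; none was used for Slc5a2 and Slc5a12. The HNF4 letters were in 1 of these windows, that of Slc3a1, at bases 212 to 220, and in 156 of 32851 windows of all genes (0.475%). The Slc3a1 window, at chr17:85028097-85028396 on the plus strand, is shown for that match, which the capitals mark. The match is letters in a window, and no binding was measured.
Slc3a1: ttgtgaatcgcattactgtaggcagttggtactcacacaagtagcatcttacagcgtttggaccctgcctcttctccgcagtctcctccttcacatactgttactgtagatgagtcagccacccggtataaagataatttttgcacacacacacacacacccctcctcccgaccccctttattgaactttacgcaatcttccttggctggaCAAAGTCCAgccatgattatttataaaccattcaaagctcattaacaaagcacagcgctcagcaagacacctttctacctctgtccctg

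Library totals ran from 5619309 counts in the DBA/2J normoxia-hyperoxia replicate 2 library to 25137581, with a median of 19607361 and a second lowest total of 12384733. All 10 genes passed the filter on low counts in each of the 10 comparisons; their counts ran from 18 (Slc7a9) to 174682 (Slc34a1) in a library. The share of counts from the 37 mitochondrial genome genes was 15.4% ± 0.783 (SD, n = 3) in C57BL/6J and 8.16% ± 0.145 in DBA/2J controls at 6 h, 6.82% ± 0.970 and 3.52% ± 0.116 at 24 h, 23.9% ± 1.55 and 12.3% ± 0.534 in normoxia, and 14.1% ± 2.32 and 13.7% ± 3.30 in normoxia-hyperoxia. Among these 8 groups that share was highest in C57BL/6J normoxia and lowest in DBA/2J 24 h controls, and its part in the results below was not tested. Markers of other kidney cells were present throughout: the summed level of 5 thick ascending limb genes ran from 528.8 to 17880 CPM (counts per library total scaled by TMM factors), that of 5 podocyte genes from 401.4 to 2612 CPM and that of 5 endothelial genes from 358.7 to 1995 CPM. In such bulk samples fewer proximal cells and less RNA of these genes per cell cannot be told apart. Exons of an opposite-strand gene overlap Slc34a1 (Pfn3, 79 counts over all 48 libraries), Slc5a2 (BC017158, 22559), Slc3a1 (Prepl, 32119) and Cubn (Gm13270, 221). The kit keeps strand, but the strand setting of the counting is not given in the sources used here, so reads of such a pair cannot be told apart with certainty.

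On GRCm38 with the GENCODE M21 annotation, the phosphate and glucose carriers are Slc34a1 (chr13:55398187-55415592, plus strand) and Slc5a2 (chr7:128265657-128272430, plus strand), and the lactate carrier is Slc5a12 (chr2:110597298-110647779, plus strand). The amino acid genes are Slc3a1 (chr17:85028376-85064236, plus strand), Slc7a9 (chr7:35448796-35466036, plus strand) and Slc6a19 (chr13:73679745-73704865, minus strand). The dicarboxylate and bicarbonate carriers are Slc13a3 (chr2:165405028-165473230, minus strand) and Slc4a4 (chr5:88886818-89239653, plus strand), and the endocytic receptors are Lrp2 (chr2:69424340-69586065, minus strand) and Cubn (chr2:13276338-13491813, minus strand). All are protein coding, and values are counts over the whole gene.

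Levels between genes were compared per length, as CPM per kilobase of exon. Slc34a1, the sodium-phosphate cotransporter of the brush border, was first by group mean in all 16 groups, with 536 ± 175 CPM per kilobase (SD, n = 3) in C57BL/6J and 695 ± 75.7 in DBA/2J 6 h controls. Cubn, the receptor cubilin, was last by group mean in all 16, with 8.73 ± 2.25 and 15.7 ± 2.15 in those groups. In C57BL/6J with tunicamycin at 24 h the libraries of Slc34a1 overlapped those of Slc5a2. Cubn overlapped the gene above it in C57BL/6J with cyclosporin A at 6 h and 24 h and with tunicamycin at 24 h. It did so also in C57BL/6J 24 h controls and normoxia. In DBA/2J 6 h controls the order was Slc34a1, Slc5a2 (169 ± 14.8), Slc3a1 (116 ± 12.7), then Lrp2, Slc4a4, Slc5a12, Slc13a3 and Slc6a19, whose neighbours overlapped between 57.6 ± 5.91 and 44.5 ± 4.30, then Slc7a9 (26.8 ± 1.47) and Cubn. In C57BL/6J 6 h controls Slc5a2 and Slc3a1 overlapped, as did each neighbouring pair from Slc6a19 down to Slc4a4. In C57BL/6J 24 h controls Slc6a19 stood second, at 16.97 ± 3.06 against 57.5 ± 15.7 for Slc34a1, and overlapped Slc5a2 below it.

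All 10 genes had their highest group mean in DBA/2J normoxia. The lowest group mean was that of C57BL/6J normoxia-hyperoxia for 8 of them, and that of C57BL/6J cyclosporin A at 24 h for Slc5a12 (5.46 CPM) and Slc7a9 (4.10 CPM). The highest group mean was 33.7 times the lowest for Slc7a9, 82.5 times for Slc34a1 and 88.7 times for Slc5a2. Together the 10 genes took 0.395% ± 0.129 of all counts (SD, n = 3) in C57BL/6J and 0.660% ± 0.0594 in DBA/2J 6 h controls, and 0.0622% ± 0.0142 and 0.161% ± 0.0595 in 24 h controls. Their share was 0.646% ± 0.151 and 1.31% ± 0.0933 in normoxia, and 0.0204% ± 0.00341 and 0.0800% ± 0.0164 in normoxia-hyperoxia.

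**Figure D1:**
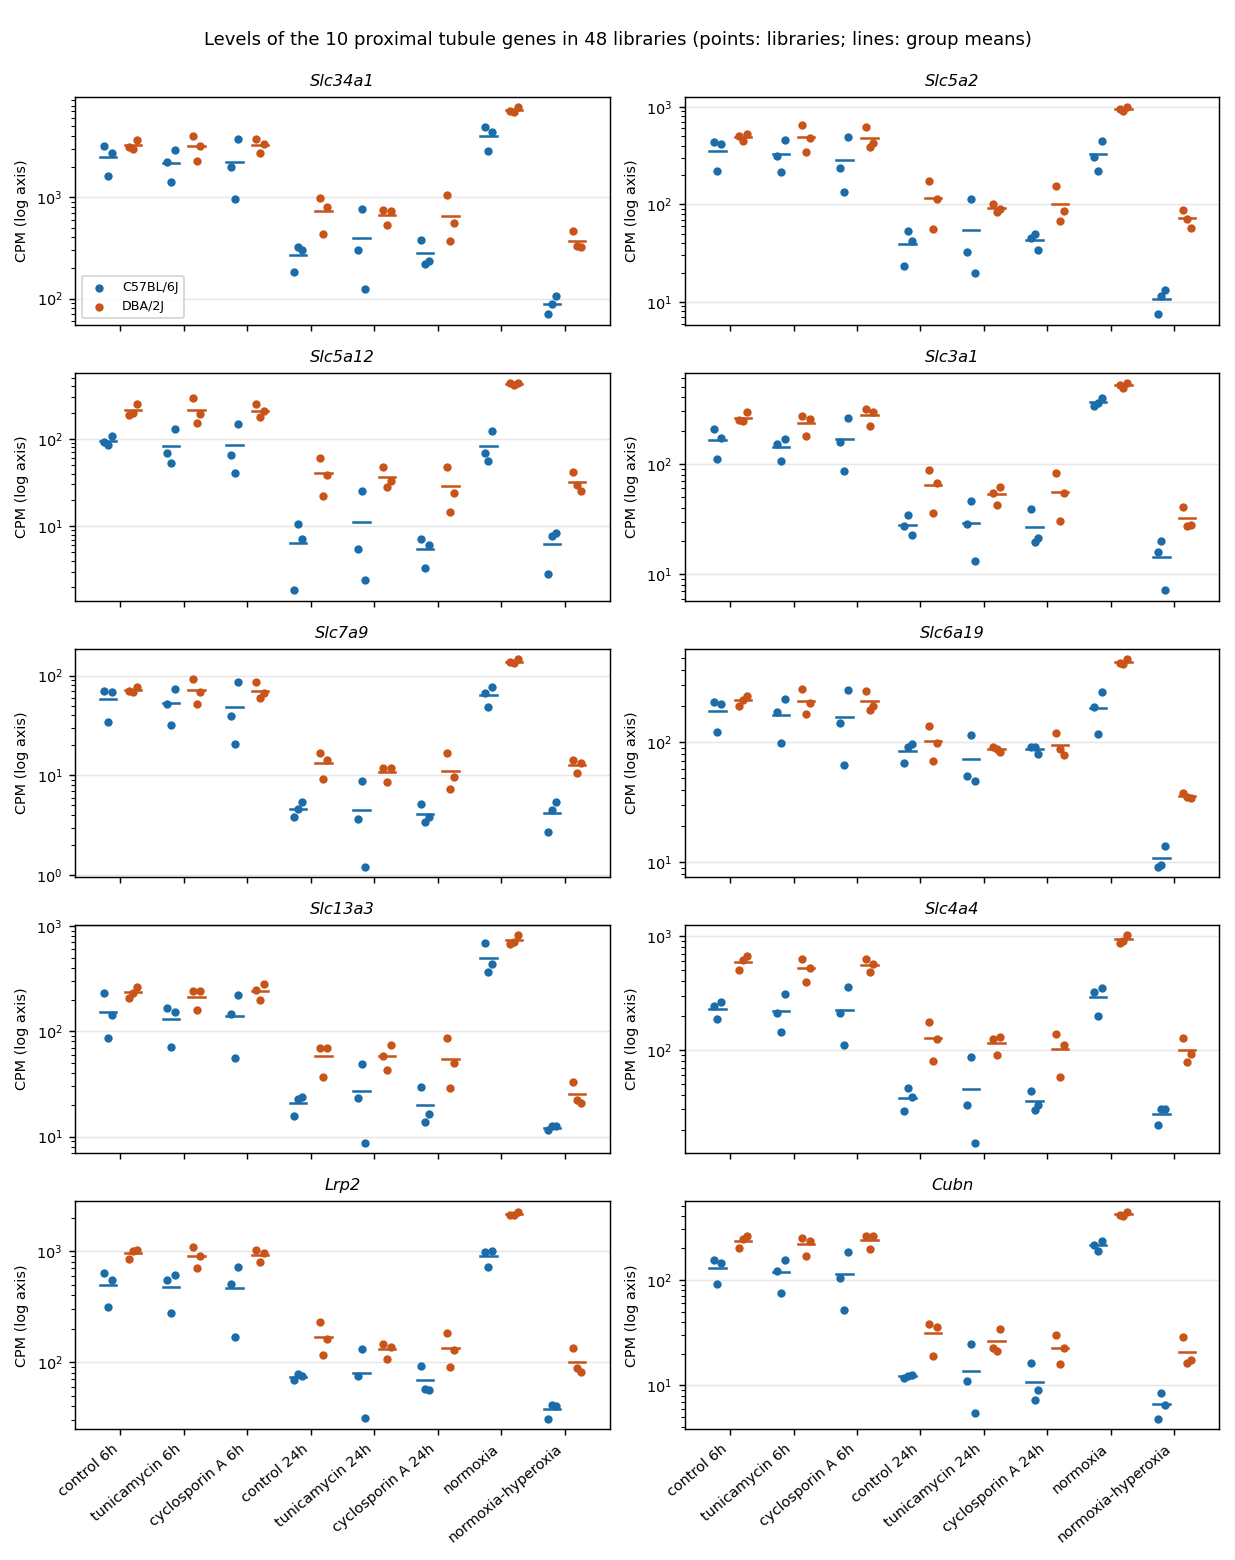
Level of each of the 10 genes in CPM (log axis) in the 8 conditions. Points are libraries, short lines are group means of 3 libraries, blue is C57BL/6J and orange DBA/2J. Slc34a1 falls from means of 2506 and 3250 CPM in 6 h controls to 268.8 and 737.4 CPM in 24 h controls, and normoxia lies above both control times in DBA/2J for all 10 genes.

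The first question was how far the uptake genes held their level in untreated slices between 6 h and 24 h. All 10 fell, by 9.12-fold for Cubn, 8.92-fold for Slc5a12 and 8.36-fold for Slc7a9 at one end and by 2.201-fold for Slc6a19 at the other, as the mean of both strains. Every 24 h library lay below every 6 h library of its strain for each of the 10 genes. Both counts stand against a wide background: 72.0% of the 16962 genes tested passed an adjusted p of 0.05 in edgeR's quasi-likelihood test (37.4% lower), and 27.3% were separated downward in both strains. The median log2 fold change was -2.65 for the 10 genes and -0.02 for all genes.

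Among the solute carriers, Slc34a1 had 3196, 1603 and 2718 CPM in the C57BL/6J libraries and 3138, 2965 and 3646 CPM in those of DBA/2J at 6 h. At 24 h it had 185, 319 and 302 CPM in the C57BL/6J libraries and 976, 433 and 803 CPM in those of DBA/2J. The 24 h libraries were low in both strains, lower in C57BL/6J than in DBA/2J, and did not overlap the 6 h libraries; the mean log2 fold change was -2.70 (SE 0.240, adjusted p = 9.42e-07). Slc5a2, the sodium-glucose cotransporter SGLT2, had 434, 221 and 414 CPM in the C57BL/6J libraries and 498, 444 and 528 CPM in those of DBA/2J at 6 h. At 24 h it had 23.2, 53.8 and 42.1 CPM in the C57BL/6J libraries and 174, 56.4 and 114 CPM in those of DBA/2J, a log2 fold change of -2.65 (SE 0.304, adjusted p = 1.27e-05). Its DBA/2J 24 h libraries spread widely, with replicate 2 lowest, and still lay under all 6 h libraries. Slc5a12, a sodium-coupled lactate carrier, had 91.9, 84.1 and 109 CPM in the C57BL/6J libraries and 188, 199 and 254 CPM in those of DBA/2J at 6 h. At 24 h it had 1.83, 10.6 and 7.05 CPM in the C57BL/6J libraries and 60.2, 21.99 and 38.4 CPM in those of DBA/2J, a log2 fold change of -3.16 (SE 0.348, adjusted p = 1.25e-05). The C57BL/6J 24 h libraries of Slc5a12 were the lowest of all its control libraries, and no library of one time reached the range of the other. Slc13a3, a sodium-dicarboxylate carrier of the basolateral side, went from 152 ± 72.2 to 20.7 ± 4.39 CPM (SD, n = 3) in C57BL/6J. In DBA/2J it went from 235 ± 28.2 to 58.8 ± 19.1 CPM. Slc4a4, the basolateral sodium-bicarbonate cotransporter, went from 229.7 ± 39.7 to 37.9 ± 8.69 CPM in C57BL/6J. Its DBA/2J values were 593 ± 81.9 and 127 ± 48.1 CPM. Both fell, by 5.51-fold and 5.39-fold in the mean of the strains.

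The amino acid genes did not keep together. Slc3a1 and Slc7a9 encode the heavy and the light subunit of the transporter for cystine and dibasic amino acids, and their log2 fold changes were -2.31 (SE 0.223, adjusted p = 2.15e-06) and -3.06 (SE 0.207, adjusted p = 9.12e-08). Slc7a9 had 70.7, 34.3 and 68.4 CPM in the C57BL/6J libraries and 70.4, 68.5 and 76.1 CPM in those of DBA/2J at 6 h. At 24 h it had 3.80, 4.57 and 5.43 CPM in the C57BL/6J libraries and 16.9, 9.15 and 14.1 CPM in those of DBA/2J, with all C57BL/6J libraries near the bottom of its range. Slc6a19, the neutral amino acid carrier B0AT1, had 217, 120.3 and 209 CPM in the C57BL/6J libraries and 201, 224 and 244 CPM in those of DBA/2J at 6 h and 67.5, 91.1 and 96.2 CPM in the C57BL/6J libraries and 136, 69.9 and 98.2 CPM in those of DBA/2J at 24 h. Within each strain its 24 h libraries were lower than those of 6 h without overlap, while C57BL/6J replicate 2 at 6 h was lower than DBA/2J replicate 1 at 24 h; the log2 fold change was -1.14 (SE 0.185, adjusted p = 0.00016). Slc6a19 thus held 46.6% of its 6 h mean in C57BL/6J and 45.4% in DBA/2J, the highest retention of the 10 genes in both strains. The lowest was 6.83% for Slc5a12 in C57BL/6J and 13.2% for Cubn in DBA/2J, and the median over the 10 genes was 12.4% and 22.1%.

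Lrp2 encodes megalin, the large endocytic receptor that takes up filtered protein, and Cubn encodes cubilin, which depends on megalin and amnionless. Lrp2 had 637, 316 and 548 CPM in the C57BL/6J libraries and 849, 1012 and 1026 CPM in those of DBA/2J at 6 h. At 24 h it had 68.4, 78.8 and 75.3 CPM in the C57BL/6J libraries and 232, 116 and 161 CPM in those of DBA/2J, a log2 fold change of -2.65 (SE 0.198, adjusted p = 2.09e-07). Cubn had 155, 92.05 and 145 CPM in the C57BL/6J libraries and 199, 243 and 262 CPM in those of DBA/2J at 6 h. At 24 h it had 11.8, 12.2 and 12.6 CPM in the C57BL/6J libraries and 38.5, 18.8 and 35.7 CPM in those of DBA/2J, a log2 fold change of -3.19 (SE 0.191, adjusted p = 3.45e-08). For both receptors the 6 h and 24 h libraries were far apart, and the 3 C57BL/6J libraries of 24 h were close to each other. Of 15 genes of the endocytic apparatus, 8 rose and 6 fell, with a median of 0.19. Those that serve the receptors most directly fell: Amn, the amnionless partner of cubilin, by 2.15, Lrpap1, the chaperone of megalin, by 1.71 and the adaptor Dab2 by 1.13 on the log2 scale, while the adaptor Gipc1 rose by 0.57.

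Other genes of the proximal tubule moved the same way. Of 29 other proximal solute transporters tested, of 30 listed, 27 fell and 1 rose, with a median log2 fold change of -2.35. The fructose carrier Slc2a5 (-3.62) and Slc17a3 (-3.19) fell most, and the widely expressed phosphate carrier Slc20a2 (1.26) rose. The glucose carriers Slc5a1 and Slc2a2 fell by 1.93 and 2.02. Of 10 partners and scaffolds of the uptake proteins, 8 fell and 1 rose (median -1.47): Cltrn, which brings Slc6a19 to the brush border, fell by 2.71, and Slc3a2, the heavy subunit of other amino acid exchangers, rose by 0.88. All 10 proximal transcription factors fell (median -1.48), Nr1h4 by 2.69 and Hnf4a by 2.27. Of 10 genes of the injured proximal tubule, 5 rose and 3 fell, with Havcr1, the injury marker KIM-1, up by 5.88 and Lcn2 up by 1.97.

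Markers of other segments fell as well over the same hours: 5 of 5 of the thick ascending limb (median -1.84), 4 of 4 of the distal convoluted tubule (-1.85), 5 of 5 of principal cells (-1.39), 5 of 5 of intercalated cells (-2.04) and 5 of 5 of podocytes (-0.83). Endothelial genes fell in 3 and rose in 1 of 5, fibroblast genes fell in 4 of 5, immune genes fell in 4 and rose in 1 of 5, and the 1 urothelial gene tested of 4, Krt5, rose by 7.61. Their part in the fall of the 10 genes was not tested.

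The fall was called for all 10 genes within each strain (background 61.5% for C57BL/6J, 62.0% for DBA/2J), with medians of -3.04 and -2.20. The difference between the strains in this change passed for 0 of the 10 genes against 0.690% of all genes, and ran from -0.05 (Slc6a19) to 1.45 (Slc5a12) in DBA/2J minus C57BL/6J; 2 of the 10 had an unadjusted p under 0.05, without the filter on low counts 5 passed (2.55% of all genes), and without C57BL/6J control 6 h replicate 2 the count was 1.

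**Figure D2:**
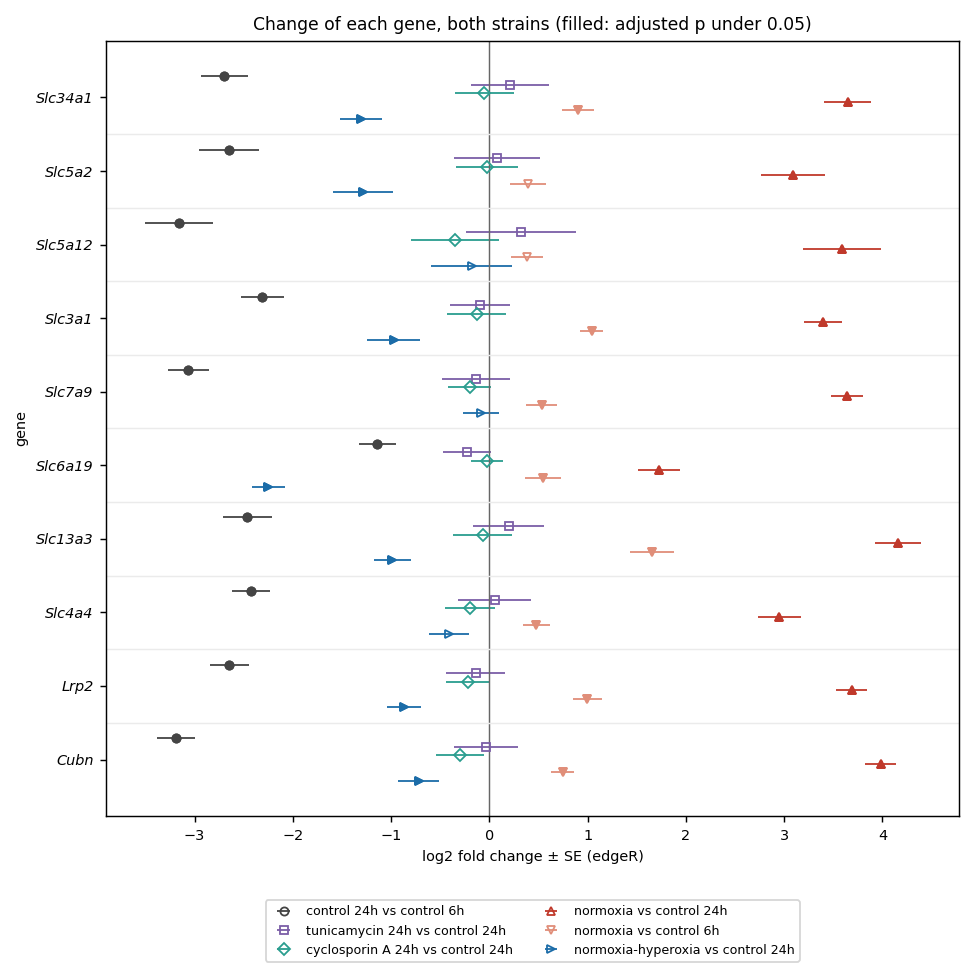
Log2 fold change with its standard error for each of the 10 genes in 6 comparisons, as the mean of both strains; filled points passed an adjusted p of 0.05 in edgeR. All 10 genes lie below 0 in 24 h against 6 h controls and above 0 in normoxia against 24 h controls, with Slc13a3 at 4.16, while both drug panels lie around 0 with no filled point.

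The second question was whether either nephrotoxin moved the uptake genes away from their time-matched controls. None of the 10 genes passed the test in any of the 4 comparisons, none had an unadjusted p under 0.05, and for none did the treated libraries lie beyond all controls in both strains, where few of all genes did so: 0.0725% upward and 0.0906% downward with tunicamycin at 6 h, 1.27% and 1.60% at 24 h, and 0.218% and 0.345% with cyclosporin A at 6 h, 0.420% and 0.870% at 24 h. The background was equally thin: 0.00% of 16551 genes were called for tunicamycin at 6 h (281 at an unadjusted p under 0.05), 1.38% of 16905 at 24 h, and for cyclosporin A 0.00% of 16538 at 6 h (734 at an unadjusted p under 0.05) and 0.00% of 16887 at 24 h (1107). DESeq2 called 45 and 20 genes for cyclosporin A at 6 h and 24 h.

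With tunicamycin, log2 fold changes of the 10 genes ran from -0.19 (Slc13a3) to -0.05 (Slc5a2) at 6 h and from -0.23 (Slc6a19) to 0.32 (Slc5a12) at 24 h. With cyclosporin A they ran from -0.18 (Slc5a2) to 0.05 (Slc3a1) at 6 h and from -0.35 (Slc5a12) to -0.02 (Slc5a2) at 24 h. The 95% intervals bound what these libraries could show. Over the 10 genes they reached from -0.71 to 0.42 and -0.94 to 1.59 for tunicamycin at 6 h and 24 h, and from -0.80 to 0.60 and -1.34 to 0.69 for cyclosporin A. Changes of about that size were therefore not resolved, above all for Slc5a12 at 24 h, whose C57BL/6J levels are low.

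Slc34a1 and Lrp2 show the pattern by library. With tunicamycin at 24 h Slc34a1 had 302, 756 and 125 CPM in the C57BL/6J libraries and 748, 532 and 737 CPM in those of DBA/2J, and with cyclosporin A 380.2, 220.4 and 234 CPM in the C57BL/6J libraries and 1044, 372 and 558 CPM in those of DBA/2J. These ranges overlap those of the 24 h controls in both strains. Lrp2 had 74.8, 132 and 31.6 CPM in the C57BL/6J libraries and 146, 106 and 137 CPM in those of DBA/2J with tunicamycin at 24 h and 93.2, 56.9 and 56.6 CPM in the C57BL/6J libraries and 183, 89.6 and 129 CPM in those of DBA/2J with cyclosporin A, again overlapping the control range. As a share of the 6 h control mean of the strain, the median over the 10 genes in C57BL/6J and DBA/2J was 90.5% and 95.6% with tunicamycin and 88.9% and 98.5% with cyclosporin A at 6 h. At 24 h these medians were 15.8% and 19.01% with tunicamycin and 12.6% and 18.7% with cyclosporin A, beside 12.4% and 22.1% in the controls.

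The third question was how the uptake genes stood in the oxygen conditions. In normoxia all 10 were higher than in 24 h controls and passed the test, from 3.31-fold for Slc6a19 to 15.8-fold for Cubn and 17.9-fold for Slc13a3. Every normoxia library lay above every 24 h control of its strain for all 10 genes. Of the 17375 genes tested, 82.0% were called (42.4% higher) and 32.1% were separated upward in both strains. The median log2 fold change of the 10 genes was 3.62, beside 0.05 over all genes. All 10 passed within C57BL/6J (background 76.2%) and within DBA/2J (74.3%), and the difference between the strains passed for 0 of 10 (and for 2955 of the 17375 genes). It passed for 4 of the 10 without the filter on low counts (10.7% of all genes), for 3 without DBA/2J control 24 h replicate 2 and for 1 without C57BL/6J normoxia replicate 3.

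Slc13a3 had 690.3, 369 and 431 CPM in the C57BL/6J libraries and 679, 702 and 812 CPM in those of DBA/2J in normoxia. In 24 h controls it had 15.7, 22.9 and 23.6 CPM in the C57BL/6J libraries and 69.8, 36.7 and 69.8 CPM in those of DBA/2J. The lowest normoxia library was many times the highest control, and the log2 fold change was 4.16 (SE 0.230, adjusted p = 1.89e-08). Slc34a1 had 4888, 2834 and 4390 CPM in the C57BL/6J libraries and 7098, 6912 and 7742 CPM in those of DBA/2J in normoxia, which put the 3 DBA/2J libraries above every other library of the series for this gene; its log2 fold change was 3.65 (SE 0.239, adjusted p = 5.84e-08). Lrp2 had 988, 719 and 1011 CPM in the C57BL/6J libraries and 2103, 2135 and 2274 CPM in those of DBA/2J, and Cubn had 215, 187 and 232 CPM in the C57BL/6J libraries and 411, 405 and 443 CPM in those of DBA/2J. The DBA/2J normoxia libraries were the highest of all for both receptors, and the log2 fold changes were 3.69 (SE 0.159, adjusted p = 2.69e-10) for Lrp2 and 3.98 (SE 0.156, adjusted p = 2.27e-10) for Cubn. Slc7a9 (3.64), Slc5a12 (3.59), Slc3a1 (3.39), Slc5a2 (3.09) and Slc4a4 (2.95) rose in between. Slc6a19 rose least, with 196, 117 and 262 CPM in the C57BL/6J libraries and 459, 444 and 489 CPM in those of DBA/2J and a log2 fold change of 1.73 (SE 0.216, adjusted p = 2.52e-05).

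Set against 6 h controls, 8 of the 10 genes were higher in normoxia (65.8% of 16819 genes were called, 32.9% higher). The log2 fold changes were 1.65 for Slc13a3, 1.04 for Slc3a1, 1.00 for Lrp2, 0.90 for Slc34a1, 0.75 for Cubn, 0.55 for Slc6a19, 0.53 for Slc7a9 and 0.48 for Slc4a4. Slc5a2 (0.39, SE 0.182, adjusted p = 0.0735) and Slc5a12 (0.39, SE 0.164, adjusted p = 0.055) did not pass. Both passed without C57BL/6J control 6 h replicate 3, without C57BL/6J normoxia replicate 2, with DESeq2 and without the filter on low counts. Slc5a12 also passed with RLE factors and without DBA/2J control 6 h replicate 3 or C57BL/6J normoxia replicate 1. Without C57BL/6J normoxia replicate 3 the values were 0.24 for Slc5a2 and 0.19 for Slc5a12, and neither passed. Slc3a1, Slc13a3, Lrp2 and Cubn were separated upward in both strains, where 22.3% of all genes were. Slc3a1 had 337, 358 and 393 CPM in the C57BL/6J libraries and 523, 487 and 539.7 CPM in those of DBA/2J in normoxia and 208, 111 and 173 CPM in the C57BL/6J libraries and 248, 244 and 296 CPM in those of DBA/2J at 6 h; no normoxia library came down to the control range. Slc5a12 in C57BL/6J had 69.6, 56.4 and 124 CPM in normoxia and 91.9, 84.1 and 109 CPM at 6 h, which overlap, while in DBA/2J it had 433, 416 and 435 and 188, 199 and 254 CPM, which do not. Within C57BL/6J 5 of the 10 genes passed (background 52.5%) and within DBA/2J 10 of 10 (55.4%), but the difference between the strains passed for 0 of 10 (background 3.66%). That count of 0 was not stable: it was 4 without the filter on low counts (4.90% of all genes) and 2 with DESeq2 (7.76%), without C57BL/6J control 6 h replicate 2 or without C57BL/6J normoxia replicate 3. A replicate block takes same-numbered libraries of a strain together, and 5 of 6 such pairs had a correlation over 0.1 here. With it the count was 5 of the 10, and more of all genes passed too. Under that block all 10 genes, Slc5a2 and Slc5a12 among them, passed in the mean of both strains. In a single fit of all 48 libraries 5 of the 10 passed instead of 8, and Slc7a9, Slc6a19 and Slc4a4 were those lost. Against the same 6 h controls, markers of podocytes fell in 5 of 5 (median -1.31), of endothelial cells in 5 of 5 (-1.06), of fibroblasts in 5 of 5 (-1.48) and of the distal convoluted tubule in 4 of 4 (-0.71), and the injury genes fell in 10 of 10 (-2.37). Thick ascending limb genes rose in 2 of 5, principal cell and immune genes each rose in 3 and fell in 2 of 5, and intercalated cell genes rose in 1 and fell in 2 of 5. Their part in the rise of the 8 genes was not tested.

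Other proximal genes were also high in normoxia. Of the 29 other solute transporters 28 rose and 1 fell against 24 h controls (median 3.62), with Slc17a3 at 4.69 and Slc2a5 at 4.62, and 25 rose and 1 fell against 6 h controls (median 1.06). Of 10 partners and scaffolds 8 rose and 2 fell against 24 h controls, with Cltrn at 3.27 and the scaffold Pdzk1 at 3.13. All 10 transcription factors rose, Hnf4a by 3.59. Of the 15 endocytic genes 5 rose and 9 fell, and Amn (3.07), Lrpap1 (2.58) and Dab2 (1.65) were among those that rose. Of 10 injury genes 9 fell and none rose (median -4.00), Krt20 by 8.51 and Havcr1 by 7.16. Against 24 h controls, markers of the thick ascending limb rose in 5 of 5, of the distal convoluted tubule in 4 of 4, of principal cells in 4 of 5 and of intercalated cells in 5 of 5, podocyte markers fell in 4 of 5, endothelial markers rose in 1 and fell in 2 of 5, fibroblast markers fell in 1 of 5, and immune markers rose in 4 and fell in 1 of 5. Their part in the result was not tested.

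Most of the uptake genes were lower in normoxia-hyperoxia than in 24 h controls. Of the 10 genes 7 fell, where 68.2% of 17256 genes were called and 34.1% were lower. Slc6a19 fell most, by 4.75-fold, and Slc34a1, Slc5a2, Slc13a3, Slc3a1, Lrp2 and Cubn fell by 2.46-, 2.44-, 1.98-, 1.97-, 1.82- and 1.65-fold. Slc4a4, Slc5a12 and Slc7a9 did not pass. Slc4a4 passed in 2 of the 12 fits that leave out 1 library, with log2 values from -0.54 to -0.27 over the 12.

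Slc6a19 had 9.18, 9.42 and 13.8 CPM in the C57BL/6J libraries and 37.8, 34.95 and 34.1 CPM in those of DBA/2J in normoxia-hyperoxia, all below the 24 h controls, where C57BL/6J had 67.5, 91.1 and 96.2 and DBA/2J 136, 69.9 and 98.2 CPM. The gap was wide in C57BL/6J and narrower in DBA/2J; the log2 fold change was -2.25 (SE 0.169, adjusted p = 2.77e-07). Slc34a1 had 69.9, 87.9 and 106 CPM in the C57BL/6J libraries and 465, 331 and 325 CPM in those of DBA/2J (log2 fold change -1.30, SE 0.213, adjusted p = 0.000219), and in DBA/2J its highest library overlapped the lowest 24 h control. Slc5a2 had 7.48, 11.4 and 13.2 CPM in the C57BL/6J libraries and 88.3, 70.4 and 57.1 CPM in those of DBA/2J (-1.28, SE 0.305, adjusted p = 0.00369), with the C57BL/6J libraries all below their controls and the DBA/2J libraries within the range of theirs. Slc6a19 and Slc13a3 were the genes separated downward in both strains, where 25.2% of all genes were. Each of the 7 calls held without any single library. For the 3 genes that did not pass, the 95% interval of the log2 fold change was -0.86 to 0.03 for Slc4a4 (-0.41, SE 0.201, adjusted p = 0.091), -1.10 to 0.74 for Slc5a12 (-0.18, SE 0.411, adjusted p = 0.716) and -0.47 to 0.30 for Slc7a9 (-0.09, SE 0.180, adjusted p = 0.689). Slc7a9 had 2.72, 4.49 and 5.39 CPM in the C57BL/6J libraries and 14.4, 10.5 and 13.4 CPM in those of DBA/2J, which overlaps its 24 h controls in both strains.

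Within C57BL/6J 6 of the 10 genes passed (background 57.4%) and within DBA/2J 5 (57.3%); the strain difference passed for 0 of 10 (background 1.43%), with Slc6a19 nearest at 1.47 (SE 0.330, adjusted p = 0.0572). It passed for 3 of the 10 without the filter on low counts (3.56% of all genes), and for 1 with DESeq2 (4.40%) or with a replicate block. The count was also 1 without C57BL/6J control 24 h replicate 1, DBA/2J control 24 h replicate 1 or 2, or C57BL/6J normoxia-hyperoxia replicate 3. The DBA/2J count rests on few libraries: it was 2 without DBA/2J control 24 h replicate 1 or without DBA/2J normoxia-hyperoxia replicate 3, and 3 without DBA/2J normoxia-hyperoxia replicate 2, the library with the lowest total.

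Against normoxia all 10 genes were lower in normoxia-hyperoxia, from 10.2-fold for Slc4a4 to 30.6-fold for Slc34a1 and 34.99-fold for Slc13a3. All 10 were separated downward in both strains, where 27.2% of all genes were, and 73.5% of 17228 genes were called (36.5% lower). Slc13a3 had 11.4, 12.5 and 12.5 CPM in the C57BL/6J libraries and 33.04, 22.2 and 20.9 CPM in those of DBA/2J in normoxia-hyperoxia, far below every normoxia library, and its log2 fold change was -5.13 (SE 0.187, adjusted p = 1.37e-10). The receptors had 30.8, 41.5 and 40.2 CPM (Lrp2) and 4.82, 8.51 and 6.45 CPM (Cubn) in C57BL/6J, and 133, 88.96 and 82.2 and 28.5, 16.3 and 17.6 CPM in DBA/2J. Their log2 fold changes were -4.54 (SE 0.148, adjusted p = 3.25e-12) and -4.68 (SE 0.160, adjusted p = 4.61e-11), with no overlap between the conditions. Slc5a2 (-4.36), Slc3a1 (-4.35), Slc6a19 (-3.96), Slc5a12 (-3.75) and Slc7a9 (-3.70) fell in between. Beside this fall, markers of other cells rose: of podocytes in 5 of 5 (median 1.20), of endothelial cells in 5 of 5 (1.20), of the distal convoluted tubule in 4 of 4 (1.32), of principal cells in 5 of 5 (0.67), of intercalated cells in 4 of 5 (0.66), of fibroblasts in 4 of 5 (0.76) and of immune cells in 3 of 5 (0.38). Of the thick ascending limb genes 1 of 5 fell and none rose. The part of these in the fall was not tested.

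The fall from normoxia differed between the strains for 1 of the 10 genes, Slc34a1, against a background of 18.2% of genes. Its log2 fold change was -5.51 for C57BL/6J but -4.36 for DBA/2J, a difference of 1.16 (SE 0.294, adjusted p = 0.015). Other settings called more of the 10: 6 without the filter on low counts (10.6% of all genes), and 2 with DESeq2 (21.8%) or with library totals alone (14.5%). The count was also 2 with a replicate block, without C57BL/6J normoxia replicate 2 or without DBA/2J normoxia-hyperoxia replicate 3. The Slc34a1 difference passed in all 12 fits that leave out 1 library, but not in a single fit of all 48 libraries (1.24, adjusted p = 0.213).

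Against 6 h controls all 10 genes were lower and separated in normoxia-hyperoxia, with log2 fold changes from -2.83 (Slc4a4) to -3.98 (Slc34a1). Here 44.9% of 16841 genes were called (22.5% lower) and 14.4% were separated downward. The genes held a median of 6.94% of their 6 h mean in C57BL/6J, from 3.01% for Slc5a2 to 11.9% for Slc4a4, and 13.4% in DBA/2J, from 8.85% for Cubn to 17.8% for Slc7a9. Beside this fall, principal cell, intercalated cell and immune markers each rose in 4 of 5 (medians 1.00, 0.74 and 0.62), distal convoluted tubule markers in 3 of 4 (0.85), and podocyte and endothelial markers in 1 of 5 each. Fibroblast markers fell in 3 of 5 (-0.82) and thick ascending limb markers in 1 of 5, and injury genes rose in 4 and fell in 1 of 10. Their part in the result was not tested. The difference between the strains passed for 1 of the 10, Slc5a2 (background 0.232%), with log2 fold changes of -5.04 for C57BL/6J but -2.79 for DBA/2J and a difference of 2.24 (SE 0.368, adjusted p = 0.0381). The count was 6 of the 10 without the filter on low counts (2.26% of all genes), 4 with DESeq2 (1.51%) or without C57BL/6J control 6 h replicate 2, and 0 in the single fit of 48 libraries (0.534%). The Slc5a2 difference kept its call without C57BL/6J control 6 h replicate 2 or DBA/2J normoxia-hyperoxia replicate 3 and lost it in the other 10 of the 12 fits that leave out 1 library, with values from 2.05 to 2.49.

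The other solute transporters were mixed in normoxia-hyperoxia against 24 h controls: 7 rose and 12 fell of 29 (median -0.41). The sodium-proton exchanger Slc9a3 rose by 2.57, the peptide carrier Slc15a2 by 2.12 and the glucose carrier Slc5a1 by 1.87, while Slc6a18, a relative of Slc6a19, fell by 2.19, the organic anion carrier Slc22a6 by 1.51 and Slc2a2 by 1.19. Against normoxia 27 of the 29 fell and none rose (median -4.07), and Slc5a1 (-0.29) did not pass. Of the partners 5 rose and 3 fell against 24 h controls, and Cltrn fell by 0.59. Of the endocytic genes 2 rose and 6 fell, with Amn at -1.08, while the value for Dab2 was 0.09 and did not pass.

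Of the transcription factors 7 of 10 rose and 1 fell against 24 h controls (median 0.56), with Hnf4a at 0.58. Against normoxia 9 of 10 fell and none rose, Hnf4a by 3.00. Of the injury genes 5 rose and 5 fell against 24 h controls, with Clu at 1.17, Vcam1 at 1.09 and Havcr1 at -6.16, and 10 of 10 rose against normoxia (median 3.15). Beside these, markers of the thick ascending limb rose in 5 of 5 against 24 h controls (median 1.87), of the distal convoluted tubule in 4 of 4 (2.67), of principal cells in 5 of 5 (2.08), of intercalated cells in 5 of 5 (2.79) and of podocytes in 4 of 5 (0.91). Endothelial markers rose in 3 and fell in 1 of 5, fibroblast markers rose in 3 and fell in 1, and immune markers rose in 4 and fell in 1. The part of these other cell types in the result was not tested.

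The time, normoxia and normoxia-hyperoxia comparisons share the 24 h control libraries, so their values stand side by side and are not independent of each other. Scaling by library totals alone in place of TMM factors shifted the median of all genes by 0.21 in the time comparison, by -0.27 in normoxia and by -0.17 in normoxia-hyperoxia against 24 h controls (log2), and no direction of a called gene among the 10 turned.

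**Figure D3:**
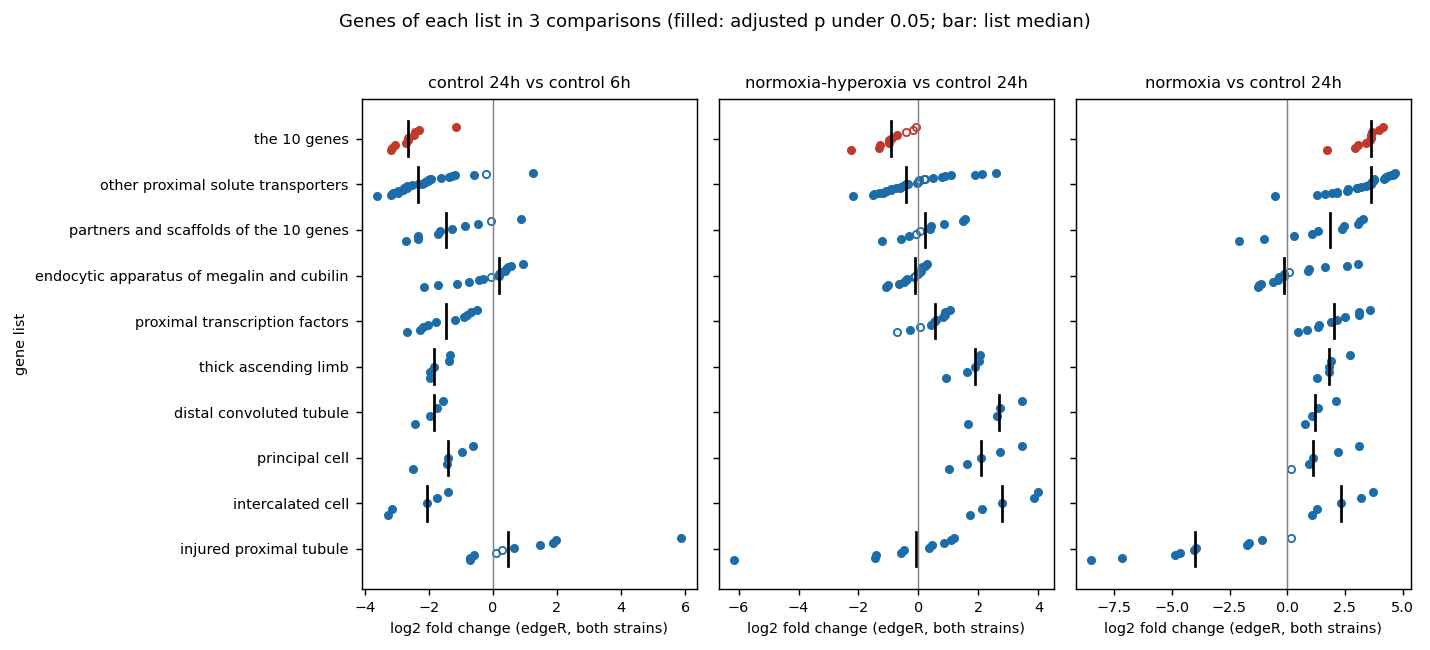
Log2 fold change of each gene in 10 lists for 24 h against 6 h controls, normoxia-hyperoxia against 24 h controls and normoxia against 24 h controls. Points are genes, filled where they passed an adjusted p of 0.05 in edgeR, and bars are list medians. The 10 uptake genes have medians of -2.65, -0.92 and 3.62, and the markers of distal segments lie above 0 in normoxia-hyperoxia, where most uptake genes lie below it.

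The strains differed in the level of the uptake genes. DBA/2J was higher than C57BL/6J for each of the 10 genes in each of the 4 drug-free conditions, and the number that passed was 3 in 6 h controls, 9 in 24 h controls, 9 in normoxia and 10 in normoxia-hyperoxia. The share of all genes called was 26.2%, 22.2%, 46.8% and 25.7% in these conditions, with 13.6%, 13.9%, 28.3% and 14.3% higher in DBA/2J. The counts of 3 at 6 h and 9 at 24 h are no test of a different strain effect at the later time; the strain difference in the change over time passed for none of the 10 with the filter on low counts and for 5 without it.

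At 6 h the genes that passed were Slc4a4 at 1.39 (SE 0.262, adjusted p = 0.00272), Lrp2 at 0.96 (SE 0.264, adjusted p = 0.0202) and Cubn at 0.87 (SE 0.244, adjusted p = 0.0227). Slc4a4 had 243, 185 and 261 CPM in the C57BL/6J libraries and 503, 612 and 663 CPM in those of DBA/2J, and the lowest DBA/2J library was well above the highest of C57BL/6J. Leaving out C57BL/6J control 6 h replicate 2 gave 0.69 for Cubn, which then did not pass. The other 7 had differences from 0.31 (Slc6a19) to 1.19 (Slc5a12). Replicate 2 was the lowest C57BL/6J 6 h control for all 10 genes. Without it the differences were 0.10 for Slc6a19, 0.081 for Slc7a9, 0.17 for Slc34a1, 0.25 for Slc5a2 and 0.38 for Slc13a3, each over 1.5 times smaller. Calls were also gained: Slc5a12 passed with library totals alone and without C57BL/6J control 24 h replicate 1 or 2 or DBA/2J control 24 h replicate 1. Slc3a1 passed with DESeq2 and without DBA/2J control 24 h replicate 2, and Slc13a3 without C57BL/6J control 6 h replicate 1 (1.09). Without DBA/2J control 6 h replicate 2 or replicate 3, or in the single fit of 48 libraries, 1 of the 10 genes passed, where 19.6%, 17.3% and 25.8% of all genes did. Without the filter on low counts all 10 passed, where 15.6% of all genes did.

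At 24 h Slc5a12 showed the widest gap, 2.64 (SE 0.510, adjusted p = 0.00434), with 1.83, 10.6 and 7.05 CPM in the C57BL/6J libraries and 60.2, 21.99 and 38.4 CPM in those of DBA/2J; the strains did not overlap. Slc4a4 (1.75), Slc7a9 (1.57), Slc5a2 (1.55), Slc13a3 (1.52), Slc34a1 (1.47), Cubn (1.36), Lrp2 (1.21) and Slc3a1 (1.20) passed too. Slc6a19 did not, at 0.27 (SE 0.261, adjusted p = 0.525), and its libraries overlapped between the strains. The calls for Slc5a2 and Slc3a1 were each lost without C57BL/6J control 24 h replicate 1 or 3 and without DBA/2J control 24 h replicate 1 or 3.

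In normoxia Slc5a12 again led, at 2.44 (SE 0.352, adjusted p = 0.00032), followed by Slc4a4 (1.76), Slc5a2 (1.62) and Slc6a19 (1.35). Slc6a19, which overlapped between the strains in 24 h controls, had 196, 117 and 262 CPM in the C57BL/6J libraries and 459, 444 and 489 CPM in those of DBA/2J in normoxia, with no overlap. Lrp2 (1.34), Slc7a9 (1.18), Cubn (1.07), Slc34a1 (0.92) and Slc13a3 (0.64) passed, Slc13a3 with overlapping libraries and a call that was lost without C57BL/6J normoxia replicate 2 or 3, any 1 of the DBA/2J normoxia libraries, or C57BL/6J normoxia-hyperoxia replicate 1 or 3 (0.45 to 0.69). Slc3a1 (0.59, SE 0.261, adjusted p = 0.0869) did not pass, though its libraries did not overlap; it passed without C57BL/6J normoxia-hyperoxia replicate 2 or 3 and without the filter on low counts. In the single fit of 48 libraries the calls for Slc34a1 and Slc13a3 in normoxia, and for Slc13a3 in normoxia-hyperoxia, were lost. In normoxia-hyperoxia Slc5a2 led at 2.73 (SE 0.289, adjusted p = 5.12e-05), with 7.48, 11.4 and 13.2 CPM in the C57BL/6J libraries and 88.3, 70.4 and 57.1 CPM in those of DBA/2J, a wide gap. Slc5a12 (2.34), Slc34a1 (2.08), Slc4a4 (1.85), Slc6a19 (1.72), Cubn (1.66), Slc7a9 (1.61), Lrp2 (1.43), Slc3a1 (1.15) and Slc13a3 (1.07) followed, and the call for Slc3a1 was lost without DBA/2J normoxia-hyperoxia replicate 1.

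Several markers of other cells were lower in DBA/2J. In 6 h controls DBA/2J was lower for 5 of 5 endothelial, 4 of 5 podocyte and 4 of 5 intercalated cell genes, and the 5 thick ascending limb genes summed to 9531 ± 769.6 CPM (SD, n = 3) in C57BL/6J against 4706 ± 1142 CPM in DBA/2J, with none of them called. In normoxia DBA/2J was lower for 4 of 5 thick ascending limb genes (summed 12395 ± 3301 against 3274 ± 1168 CPM), 4 of 5 podocyte, 3 of 5 endothelial and 4 of 5 intercalated cell genes. In 24 h controls it was lower for 4 podocyte, 3 endothelial and 3 intercalated cell genes of 5 each, and in normoxia-hyperoxia for none of the podocyte, endothelial or thick ascending limb genes and for 1 intercalated cell gene. Immune genes were higher in DBA/2J for 2, 4, 0 and 5 of 5 in 6 h controls, 24 h controls, normoxia and normoxia-hyperoxia, and lower for 2 in normoxia. Of the 29 other proximal transporters DBA/2J was higher for 17, 21, 19 and 18 in 6 h controls, 24 h controls, normoxia and normoxia-hyperoxia, and lower for 1, 1, 2 and 1. Proximal transcription factors were higher in DBA/2J for 4, 4, 7 and 4 of 10 and lower for 1, 1, 0 and 0. Injury genes were higher for 2, 1, 2 and 4 of 10 and lower for 4, 3, 3 and 2; for C57BL/6J and then DBA/2J they summed to 6174 ± 751 and 3805 ± 84.8 CPM at 6 h, 6051 ± 305 and 4927 ± 377 CPM at 24 h, 1671 ± 87.7 and 958 ± 10.8 CPM in normoxia, and 7514 ± 1248 and 5601 ± 1292 CPM in normoxia-hyperoxia. The mitochondrial share given above was also lower in DBA/2J in both controls and in normoxia. The part of these in the strain differences was not tested.

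**Figure D4:**
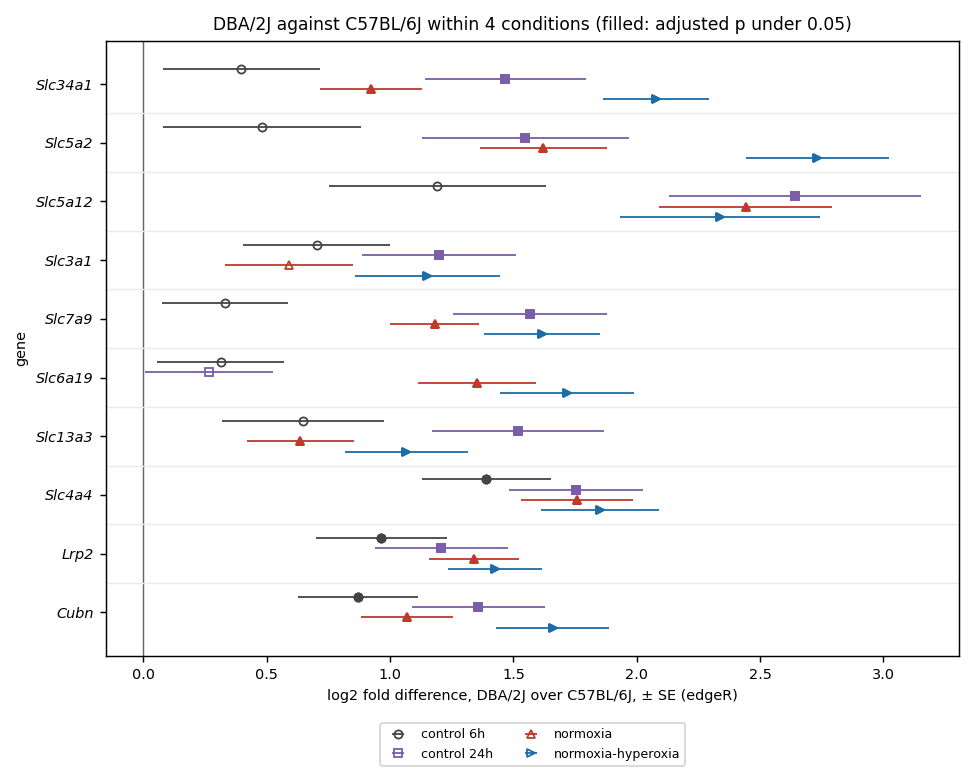
Strain difference (log2, DBA/2J over C57BL/6J, with its standard error) for each of the 10 genes in 6 h controls, 24 h controls, normoxia and normoxia-hyperoxia; filled points passed an adjusted p of 0.05 in edgeR. All 40 values lie above 0, from 0.27 for Slc6a19 in 24 h controls to 2.73 for Slc5a2 in normoxia-hyperoxia.

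The 10 genes were then compared by the shape of their profile over the 16 groups, as the root mean square distance between centred log2 CPM values. Lrp2 (0.172), Slc3a1 (0.216) and Slc34a1 (0.220) lay nearest to the mean profile of the 10, and Slc5a12 (0.573) and Slc6a19 (0.808) farthest. Slc3a1 and Lrp2 were the closest pair (0.235), Slc34a1 was closest to Slc5a2 (0.258), and Slc5a12 and Slc6a19 were the farthest apart (1.29). Among genes outside the 10, with 10370 ranked and a median distance of 1.72, Lrrc19 (0.126), Slc17a1 (0.196), Cyp2j5 (0.199) and Cltrn (0.215) were among the 5 nearest. All genes share the same libraries and scaling, and the distances are a description without a test.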

How the data were processed

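The deposited table holds whole-number counts per Ensembl gene ID for 48 libraries, and per the submitters' processing notes the authors used bcl2fastq 2.20.0, FastQC 0.11.8, STAR 2.7.9a, featureCounts 1.5.1 and GRCm38. The annotation release, strand setting and read filters are not given in the sources used here. GRCm38 is the genome of C57BL/6J, and its effect on DBA/2J counts was not tested. Symbols were matched for 55141 of 55487 IDs.

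Counts were tested with edgeR 4.0.16 in R 4.3.3 (TMM factors, default filter on low counts, robust quasi-likelihood fit without a replicate block). Each of the 10 comparisons was fitted on its own 12 libraries, with contrasts for the mean of both strains, each strain and their difference, and p-values were adjusted by Benjamini-Hochberg over all genes tested (threshold 0.05). Strain differences came from the fits of the controls and of the oxygen conditions. The code was tested on simulated data. Levels are CPM with TMM factors over the 48 libraries, and per-length levels divide by the merged exons of GENCODE M21. Profiles used log2 CPM with a prior count of 2 for genes with an average of at least 3. Alternatives were RLE factors, library totals alone, no filter, DESeq2 1.42.0, a replicate block, a single fit of all 48 libraries, leaving out each library in turn and, for levels, totals without mitochondrial genes.

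The 10 genes, the gene lists and the tests were chosen with earlier results of these data known. All 10 genes are reported in every comparison; of each list at most the 2 largest called rises and falls were named, plus Hnf4a, Slc5a1, Slc2a2, Amn, Dab2, Cltrn and Havcr1, and the 5 genes nearest in profile; some of the genes and promoter letters so chosen are not reported here. The lists were other proximal solute transporters, partners and scaffolds, the endocytic apparatus, proximal transcription factors, injured proximal tubule, and markers of the thick ascending limb, distal convoluted tubule, principal, intercalated, endothelial, fibroblast, immune and urothelial cells and podocytes.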

Additional observations from a re-analysis of the deposited data

Results flagged for a closer look

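For Slc34a1, the brush border phosphate carrier, the change from normoxia to normoxia-hyperoxia differed between the strains by 1.16 on the log2 scale (DBA/2J minus C57BL/6J), from -5.51 in C57BL/6J and -4.36 in DBA/2J, by a test of the difference itself (edgeR, adjusted p = 0.015). In DBA/2J the libraries went from 7098, 6912 and 7742 CPM to 465, 331 and 325 CPM, and in C57BL/6J from 4888, 2834 and 4390 CPM to 69.9, 87.9 and 106 CPM. The difference ran from 0.99 to 1.36 in the fits without 1 library, all of which passed, and it was 1.24 without passing in the single fit of 48 libraries. Among all genes 18.2% passed this test.

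For Slc5a2, the glucose carrier SGLT2, the change from 6 h controls to normoxia-hyperoxia differed between the strains by 2.24 (edgeR, adjusted p = 0.0381), from -5.04 in C57BL/6J and -2.79 in DBA/2J, where 0.232% of all genes passed. The C57BL/6J libraries went from 434, 221 and 414 CPM to 7.48, 11.4 and 13.2 CPM and the DBA/2J libraries from 498, 444 and 528 CPM to 88.3, 70.4 and 57.1 CPM. With a replicate block it was 2.18 (adjusted p = 0.0625) and in the single fit 2.28 (adjusted p = 0.141), neither of which passed. It ran from 2.05 to 2.49 in the 12 fits without 1 library and did not pass in 10 of them. The titles name different parts of the study for normoxia-hyperoxia and the controls, so condition and part of the study cannot be told apart.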

How the results depend on the processing

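The 10 genes all stayed called, in the same direction, for 24 h against 6 h controls, normoxia against 24 h controls, and normoxia-hyperoxia against normoxia and against 6 h controls, under every alternative and without any single library. Counts of genes and strain differences moved more, and the cause was not tested. Without the filter on low counts, the strain difference passed for 817 genes (5 of the 10) in the change over time instead of 117 (0), for 1156 (3) instead of 247 (0) in normoxia-hyperoxia against 24 h controls, for 1536 (4) instead of 616 (0) in normoxia and 712 (6) instead of 39 (1) in normoxia-hyperoxia against 6 h controls, and for 6 of the 10 instead of 1 in normoxia-hyperoxia against normoxia and 4 instead of 0 in normoxia against 24 h controls. That fit also called 10 of the 10 in the strain difference at 6 h, 9 in DBA/2J normoxia-hyperoxia against 24 h controls, 395 genes for tunicamycin at 24 h (233 in edgeR with the filter), 4 and 3 for cyclosporin A at 6 h and 24 h and 1 for the tunicamycin strain difference at 6 h. DESeq2 gave 332, 682 (1 of the 10), 1166 (2), 245 (4) and 2 of the 10 in 5 of these strain differences, in the order time, normoxia-hyperoxia against 24 h, normoxia and normoxia-hyperoxia against 6 h, and normoxia-hyperoxia against normoxia, and still 0 of the 10 in normoxia against 24 h controls. It gave 536 for tunicamycin at 24 h, 1 for the tunicamycin strain difference at 6 h, and 45 and 20 for cyclosporin A. Library totals alone gave 2 of the 10 in the strain difference of normoxia-hyperoxia against normoxia. The single fit of 48 libraries called 1 of the 10 in the strain difference at 6 h, 3 in DBA/2J normoxia-hyperoxia against 24 h controls, 5 in normoxia against 6 h controls (2 in C57BL/6J, 6 in DBA/2J), 0 in the strain differences of normoxia-hyperoxia against normoxia and against 6 h controls, 409 and 100 genes in the strain differences of normoxia-hyperoxia against 24 h and 6 h controls, and 3 genes for cyclosporin A at 24 h.

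Same-numbered libraries did not deviate together in every pair. In a comparison 0 to 5 of 6 pairs had a correlation over 0.1, with means from 0.016 to 0.145. Between 2 and 6 of 6 libraries correlated best with their own number. That count was 6 in normoxia against 6 h controls. It was 5 with tunicamycin at 6 h and in normoxia-hyperoxia against 24 h controls and against normoxia. Since not every pair did so, the numbers were not taken as pairs. These values do not settle whether same-numbered libraries share a source. With the replicate block, strain differences passed for 71 genes in the change over time, 618 (1 of the 10) in normoxia-hyperoxia against 24 h controls, 1462 (5) in normoxia against 6 h controls and 2 of the 10 in normoxia-hyperoxia against normoxia; that of Slc5a2 in normoxia-hyperoxia against 6 h controls was 2.18 (log2, edgeR adjusted p = 0.0625). Under this block all 10 passed in normoxia against 6 h controls instead of 8, and Slc3a1 with cyclosporin A at 6 h went to -0.0067 and Slc5a2 with cyclosporin A at 24 h to 0.033 (log2), both uncalled. The block was not fitted for the strain differences in level, since the numbers lie within strains.

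Without 1 library at a time, strain differences passed for 46 to 226 genes (0 to 1 of the 10) over time, 1860 to 2700 (0 to 3) in normoxia and 103 to 524 (0 to 1) in normoxia-hyperoxia against 24 h controls, 241 to 1125 (0 to 2) and 11 to 80 (0 to 4) against 6 h controls, and for 1 to 2 of the 10 in normoxia-hyperoxia against normoxia. The count was 78 to 344 genes for tunicamycin at 24 h, 0 to 1 for cyclosporin A at 6 h, 1 to 4 of the 10 for the strain difference at 6 h and 2 to 7 in DBA/2J normoxia-hyperoxia against 24 h controls. Uncalled log2 values changed sign in these fits: Slc6a19 between strains at 24 h (-0.0059 to 0.48), Slc5a2 (-0.22 to 0.060) and Slc13a3 (-0.33 to 0.023) with tunicamycin at 6 h, Slc5a12 with tunicamycin at 24 h (-0.39 to 0.64), Slc3a1 with cyclosporin A at 6 h (-0.19 to 0.21), Slc5a2 with cyclosporin A at 24 h (-0.23 to 0.19), and Slc5a12 (-0.42 to 0.13) and Slc7a9 (-0.20 to 0.023) in normoxia-hyperoxia against 24 h controls. Low counts, down to 18 for Slc7a9, limit the genes at their lowest levels.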

Other observations

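Of 29 other proximal transporters, 2 were not called lower in normoxia-hyperoxia than in normoxia. The sodium-proton exchanger Slc9a3 had a log2 fold change of -0.01 against normoxia and the glucose carrier Slc5a1 -0.29, and neither passed the test (edgeR). Against 24 h controls they stood at 2.57 and 1.87, where the glucose carrier Slc5a2 stood at -1.28. Slc9a3 and Slc5a1 are also known from segments other than the early proximal tubule, and they were singled out here after their values were seen.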
